A study of Mus musculus with 26 samples.

Results

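The collagen genes were the rows of the deposited gene count table whose symbol was Col, a number, a and a second number. There were 44 of them among 26264 symbols: 11 of fibrillar collagens, 9 of network collagens, 9 of FACIT collagens (fibril-associated collagens with interrupted triple helices), 6 of the beaded-filament collagen VI family, and 9 others, which are transmembrane collagens, multiplexins and collagens VII, XXVI and XXVIII. Collagens are secreted proteins of 3 chains wound into a triple helix. Fibrillar collagens assemble into the fibrils that give tissue its tensile strength, FACIT collagens sit on those fibrils, network collagens form sheets such as basement membranes, and collagen VI forms microfibrils around cells. In bone, osteoblasts secrete type I collagen, the product of Col1a1 and Col1a2, as the organic matrix on which mineral is laid down, while cartilage is built from types II, IX and XI.

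RNA was sequenced from osteoblasts of the mouse femur grown in serum-containing medium, in 6 groups of 3 libraries. CON-OLD-iBP were old controls that received iBP, which the labels leave as a code name. CKO-OLD and CKO-YOUNG were old and young Kdm2b fl/fl Ocn-cre Ai14 mice of the C57BL/6J strain, in which Cre removes the CxxC domain by which Kdm2b, a Polycomb protein, binds unmethylated CG-rich DNA. CON-YOUNG carried Ocn-cre and the Ai14 reporter without the floxed allele. OLD and YOUNG were C57BL/6J mice of 18 and 3 months. The exact ages of the Cre groups are not given in the labels. The groups analysed here hold no untreated old control of the Ocn-cre line, so OLD stands as the untreated old control for CKO-OLD and CON-OLD-iBP. Ocn-cre is driven by the osteocalcin promoter, which is active in mature osteoblasts, so cells of the culture at other stages may keep the whole gene. Nothing in the labels says that the libraries of a group came from separate mice or cultures, so p-values here rest on the spread between these samples alone, and that spread may be technical.

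Libraries held 46.27 to 77.7 counts in units of 1e6, and 1 count was worth 0.0127 to 0.0203 CPM (counts per 1e6 of the TMM-scaled library size). Whole-gene Kdm2b counts, 16.2 to 24.0 CPM in CON-OLD-iBP, 23.4 to 57.2 CPM in CKO-OLD, 27.6 to 58.2 CPM in CKO-YOUNG, 19.9 to 52.8 CPM in CON-YOUNG, 19.3 to 34.3 CPM in OLD and 22.6 to 37.5 CPM in YOUNG, do not check the deletion of a single domain. The libraries fell into 3 sets that cross the groups. Malat1, a nuclear RNA, took 0.0296% to 0.0386% of counts in YOUNG 1 and 2 and OLD 1 and 3 (set 1), 0.0334% to 0.0435% in the first and second libraries of CKO-YOUNG and CON-YOUNG (set 2) and 0.0957% to 0.223% in the other 10 libraries (set 3). Set 1 had Xist, the RNA of the inactive X chromosome, at 391 to 481 CPM and the Y-linked Ddx3y at 0, whereas Ddx3y was at 21.3 to 91.8 CPM in the other 14, of which CKO-YOUNG 3 alone had Xist as well (372 CPM). By these genes set 1 reads as female and the other libraries as male, apart from CKO-YOUNG 3, which holds both. OLD 1 and OLD 3 were the most alike pair, with differences 6.16 times counting noise against 15.4 to 79.3 times in the other 9 pairs of a group and set, and were kept as 2 libraries. Summed over 12 osteoblast markers the level was 7362 to 12696 CPM in CON-OLD-iBP, 11082 to 12902 CPM in CKO-OLD, 2299 to 3488 CPM in CKO-YOUNG, 3604 to 7037 CPM in CON-YOUNG, 14043 to 16538 CPM in OLD and 9296 to 20440.3 CPM in YOUNG. Spp1 alone made up most of this sum in every library. The osteocalcin gene Bglap, a defining marker of mature osteoblasts, was at most 0.31 CPM in set 2 and in CKO-YOUNG 3. Bglap2 was low in set 2 as well, at most 0.0735 CPM, but other markers of the list were not. In set 2 Alpl was at 580.3 to 1365 CPM, Sp7 at 130.4 to 247.4 CPM and Runx2 at 85.05 to 116 CPM. In OLD these 3 genes were at 83.7 to 181.7 CPM, 60.38 to 80.75 CPM and 58.96 to 77.9 CPM. In bulk RNA, fewer cells of a type and less RNA per cell cannot be told apart.

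Upstream windows show how unlike the promoters of these genes are. RefSeq windows of 250 bases before the transcription start (GRCm38.p6, whereas the reads were mapped to mm39) matched 35 of the 44 genes by symbol, in 38 windows, and left Col12a1, Col14a1, Col1a1, Col22a1, Col26a1, Col2a1, Col4a3, Col5a2 and Col9a3 without one. CG pairs had a median of 9.5 a collagen window, against 6 over all 32851 windows. On either strand, GGGCGG was in 57.9% of the collagen windows and 32.7% of all windows, CCAAT in 34.2% and 33.8%, TATAAA in 13.2% and 12.4%, and ACAAAG in 10.5% and 16.5%, overlaps between motifs being counted in each. A match is a description of the letters and not a binding site. The windows of 4 genes are shown because these genes carry the main patterns below: Col1a2 and Col3a1, whose chains share fibrils but whose levels varied apart, Col5a1, whose product starts type I fibrils, and Col10a1, the marker of hypertrophic cartilage that was high in 3 libraries. They lie at chr6:4505368-4505617, plus strand for Col1a2, chr1:45311288-45311537, plus strand for Col3a1, chr2:27886175-27886424, plus strand for Col5a1 and chr10:34389731-34389980, plus strand for Col10a1. Each is read 5′ to 3′ in the direction of transcription and ends at the base before the start. Capitals mark CCAAT and TATAAA in Col1a2 and Col3a1, CG pairs in Col5a1, and TATAAA and ACAAAG in Col10a1.
Col1a2: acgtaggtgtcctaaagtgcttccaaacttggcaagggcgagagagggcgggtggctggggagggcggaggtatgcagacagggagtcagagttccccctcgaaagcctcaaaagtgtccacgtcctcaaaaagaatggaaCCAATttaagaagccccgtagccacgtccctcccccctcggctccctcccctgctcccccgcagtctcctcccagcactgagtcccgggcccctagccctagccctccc
Col3a1: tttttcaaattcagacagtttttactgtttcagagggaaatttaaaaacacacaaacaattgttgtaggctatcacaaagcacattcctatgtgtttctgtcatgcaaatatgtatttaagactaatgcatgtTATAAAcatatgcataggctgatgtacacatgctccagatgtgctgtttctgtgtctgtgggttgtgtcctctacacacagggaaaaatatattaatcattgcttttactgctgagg
Col5a1: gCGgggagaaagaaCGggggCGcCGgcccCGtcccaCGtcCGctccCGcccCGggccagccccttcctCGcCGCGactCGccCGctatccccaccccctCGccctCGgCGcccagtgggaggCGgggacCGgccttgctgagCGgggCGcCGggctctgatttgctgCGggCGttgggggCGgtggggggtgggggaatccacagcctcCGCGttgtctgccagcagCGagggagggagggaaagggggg
Col10a1: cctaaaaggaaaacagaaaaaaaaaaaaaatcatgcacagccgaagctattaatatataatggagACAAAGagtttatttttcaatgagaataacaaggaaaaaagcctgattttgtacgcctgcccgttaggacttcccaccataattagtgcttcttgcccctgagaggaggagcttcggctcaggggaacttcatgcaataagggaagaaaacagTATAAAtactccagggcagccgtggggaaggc
Col1a2 has CCAAT at 109 bases before the start, Col3a1 has TATAAA at 117 bases, and Col10a1 has TATAAA at 32 and ACAAAG at 185 bases. The windows hold 11 CG pairs in Col1a2, 0 in Col3a1, 28 in Col5a1 and 5 in Col10a1. Col4a1 and Col4a2, which share a bidirectional promoter on chromosome 8, have annotated starts 21 bases apart on opposite strands, with 31 and 26 CG pairs in their windows.

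Of the 44 collagen genes, 42 had enough counts to be tested. Col19a1, a FACIT collagen, had at most 11 counts and was seen in 4 libraries, and Col6a6, an alternative to Col6a3 in collagen VI, had 8 counts in 1 library. In 38 genes the mean reached 1 CPM in at least 1 group, 22 had at least 1 CPM in every library and 12 at least 100 CPM in every library. All collagen genes together took 2.85%, 2.65% and 1.15% of the counts in CON-OLD-iBP libraries 1, 2 and 3, 3.07%, 4.09% and 3.53% in CKO-OLD and 7.03%, 6.09% and 6.33% in CKO-YOUNG. The share was 8.68%, 7.66% and 4.55% in CON-YOUNG, 2.94%, 2.12% and 2.98% in OLD and 3.85%, 4.14% and 5.14% in YOUNG. The 95% Wilson interval of each share was at most 0.00685 percentage points to either side and covers counting error only. The libraries did not overlap in 4 of the 8 comparisons. The share was higher in CKO-OLD than in OLD (ratio of geometric means 1.34) and lower in OLD than in YOUNG (0.609), in CKO-OLD than in CKO-YOUNG (0.547), and it was lower in CON-OLD-iBP than CKO-OLD (0.581). It overlapped between CKO-YOUNG and CON-YOUNG (0.964), between CON-OLD-iBP and OLD (0.777) and between CON-YOUNG and YOUNG (1.55). The share is a sum over the members and is given without a test.

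**Figure D1:**
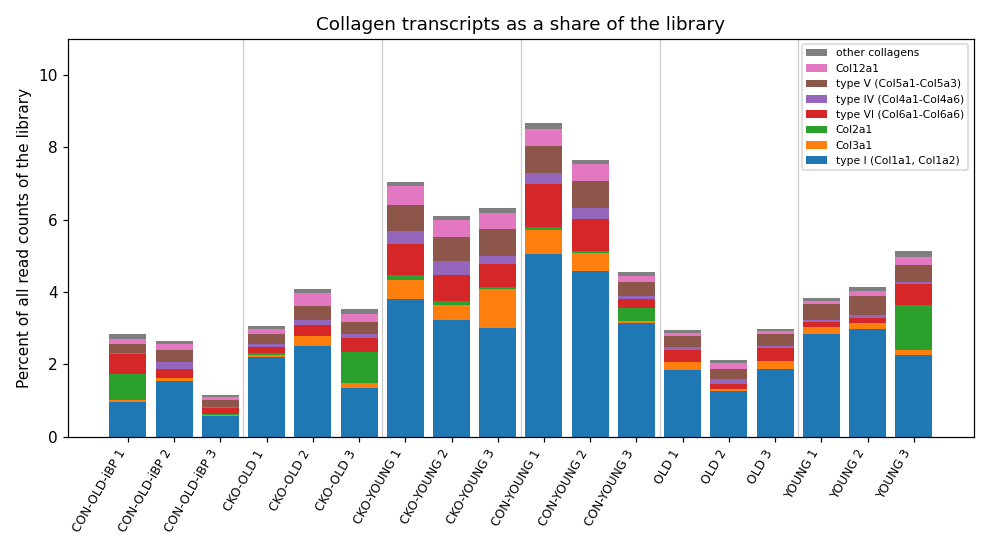
Percent of all counts in each of the 18 libraries (one bar a library, 6 groups of 3) that came from collagen genes, split by collagen type. CON-YOUNG 1 had the highest share, 8.68%, and CON-OLD-iBP 3 the lowest, 1.15%, and the type I part was the largest in every bar.

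Fibrillar collagens held most of these counts. Type I collagen, Col1a1 and Col1a2 together, took from 0.568% of counts in CON-OLD-iBP 3 to 5.06% in CON-YOUNG 1. Col1a1, the chain present in 2 copies in each type I molecule, was measured at 5484, 8734 and 2909 CPM in CON-OLD-iBP libraries 1, 2 and 3, 11985, 13547 and 7137 CPM in CKO-OLD and 25115, 22825 and 16477 CPM in CKO-YOUNG. Col1a1 stood at 32709, 30302 and 17332 CPM in CON-YOUNG, 10219, 5648 and 10476 CPM in OLD and 17329, 17135 and 13778 CPM in YOUNG. Both young Cre groups had libraries above the highest YOUNG library, and the lowest values were those of CON-OLD-iBP 3 and 1 and OLD 2. Its partner Col1a2 was measured at 4712, 6959 and 2443 CPM in CON-OLD-iBP libraries 1, 2 and 3, 8496, 9712 and 5651 CPM in CKO-OLD and 14828, 11792 and 11739 CPM in CKO-YOUNG. Col1a2 stood at 22032, 19579 and 13726 CPM in CON-YOUNG, 7862, 6384 and 7976 CPM in OLD and 10801, 12126 and 10875 CPM in YOUNG. The group order was the same for both chains, with CON-YOUNG and CKO-YOUNG at the top and CON-OLD-iBP at the bottom, and neighbouring groups in that order overlapped except YOUNG, all of whose libraries lay above CKO-OLD.

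Col3a1, whose product joins type I fibrils in soft tissue, was measured at 345, 971 and 365 CPM in CON-OLD-iBP libraries 1, 2 and 3, 564, 2735 and 1274 CPM in CKO-OLD and 5662, 4296 and 10356 CPM in CKO-YOUNG. Col3a1 stood at 7148, 5592 and 454 CPM in CON-YOUNG, 2271, 616 and 2231 CPM in OLD and 1857, 1663 and 1592 CPM in YOUNG. CKO-YOUNG 3, the highest library for Col3a1, was 30.0-fold above CON-OLD-iBP 1, the lowest, and CON-YOUNG 3 stood far below CON-YOUNG 1 and 2. The type V chains regulate the start and width of type I fibrils. Col5a1 was measured at 871, 1338 and 655 CPM in CON-OLD-iBP libraries 1, 2 and 3, 851, 1684 and 996 CPM in CKO-OLD and 3159, 3021 and 2658 CPM in CKO-YOUNG. Col5a1 stood at 3743, 3724 and 859 CPM in CON-YOUNG, 1218, 870.0 and 1244 CPM in OLD and 1879, 2333 and 2098 CPM in YOUNG. Col5a1 in CON-YOUNG 3 was below every CKO-YOUNG library. Col5a2 was measured at 1553, 2048 and 934 CPM in CON-OLD-iBP libraries 1, 2 and 3, 1910.4, 1976 and 1929.9 CPM in CKO-OLD and 3951, 3729.8 and 4252 CPM in CKO-YOUNG. Col5a2 stood at 3764, 4038 and 2829 CPM in CON-YOUNG, 1785, 1782 and 1774 CPM in OLD and 2361, 2869 and 2810.5 CPM in YOUNG. Col5a2 was even within CKO-OLD, between 1910.4 and 1976 CPM, and within OLD, between 1774 and 1785 CPM, but ran from 934 to 2048 CPM in CON-OLD-iBP. Col5a3, the least common type V chain, was measured at 251, 212 and 216 CPM in CON-OLD-iBP libraries 1, 2 and 3, 39.7, 61.5 and 31.1 CPM in CKO-OLD and 334, 344 and 151 CPM in CKO-YOUNG. Col5a3 stood at 427, 342 and 34.2 CPM in CON-YOUNG, 57.5, 43.1 and 54.7 CPM in OLD and 33.1, 33.1 and 263 CPM in YOUNG. Its levels were at least 151 CPM in every CON-OLD-iBP and CKO-YOUNG library, in CON-YOUNG 1 and 2 and in YOUNG 3, and at most 61.5 CPM elsewhere.

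The cartilage collagens followed another pattern. Col2a1, the chain of the main cartilage fibril, was measured at 7590.2, 12.1 and 264 CPM in CON-OLD-iBP libraries 1, 2 and 3, 499, 87.4 and 8014 CPM in CKO-OLD and 1404, 1327 and 421 CPM in CKO-YOUNG. Col2a1 stood at 988, 602 and 3513 CPM in CON-YOUNG, 21.9, 12.2 and 24.2 CPM in OLD and 48.0, 27.4 and 13548 CPM in YOUNG. The highest library was 13548 CPM (YOUNG 3) and the lowest 12.1 CPM (CON-OLD-iBP 2), and YOUNG and CON-OLD-iBP each held a high library and libraries near the bottom of the range. Col11a1, a chain of the cartilage and bone fibril core, was measured at 556, 150.3 and 90.1 CPM in CON-OLD-iBP libraries 1, 2 and 3, 152, 207 and 573 CPM in CKO-OLD and 58.5, 40.1 and 224 CPM in CKO-YOUNG. Col11a1 stood at 119, 95.5 and 281 CPM in CON-YOUNG, 143, 142 and 147 CPM in OLD and 329, 498 and 930.1 CPM in YOUNG. Col11a1 in OLD lay in a narrow band below all YOUNG libraries. Col11a2, its partner in cartilage, had means of 54.1 ± 84.9 CPM in CON-OLD-iBP, 33.4 ± 43.8 CPM in CKO-OLD, 6.11 ± 7.60 CPM in CKO-YOUNG, 8.94 ± 11.7 CPM in CON-YOUNG, 4.80 ± 1.24 CPM in OLD and 80.2 ± 108 CPM in YOUNG (SD, 3 libraries each). Col27a1, a fibrillar collagen of cartilage, was measured at 69.6, 6.71 and 28.4 CPM in CON-OLD-iBP libraries 1, 2 and 3, 24.6, 17.9 and 59.0 CPM in CKO-OLD and 23.0, 19.7 and 42.7 CPM in CKO-YOUNG. Col27a1 stood at 29.5, 22.5 and 16.0 CPM in CON-YOUNG, 13.1, 7.00 and 11.8 CPM in OLD and 7.91, 5.00 and 46.9 CPM in YOUNG. All libraries of CKO-OLD, CKO-YOUNG and CON-YOUNG lay above OLD for Col27a1. Col24a1, expressed where bone forms, had means of 4.46 ± 1.67 CPM in CON-OLD-iBP, 12.9 ± 4.26 CPM in CKO-OLD, 6.91 ± 9.06 CPM in CKO-YOUNG, 4.88 ± 2.76 CPM in CON-YOUNG, 8.58 ± 4.58 CPM in OLD and 4.59 ± 1.14 CPM in YOUNG. Unlike the cartilage genes, Col24a1 was highest in CKO-YOUNG 3, at 17.3 CPM.

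Among the FACIT collagens, the type IX chains coat type II fibrils. Col9a1 was read in CON-OLD-iBP 1 (15.3 CPM), CKO-OLD 3 (8.57 CPM), CKO-OLD 1 (0.241 CPM), CON-YOUNG 3 (0.664 CPM) and YOUNG 3 (28.9 CPM) and had 0 counts in the other 13 libraries. Col9a2 was at 14.5 CPM in CON-OLD-iBP 1, 7.50 CPM in CKO-OLD 3 and 23.2 CPM in YOUNG 3, and at most 1.00 CPM elsewhere. Col9a3 was at 56.7, 33.8 and 82.1 CPM in those 3 libraries and at most 2.47 CPM elsewhere. Col10a1, the network collagen of hypertrophic chondrocytes, was measured at 194, 4.88 and 2.82 CPM in CON-OLD-iBP libraries 1, 2 and 3, 2.53, 1.24 and 79.6 CPM in CKO-OLD and 8.44, 8.71 and 8.94 CPM in CKO-YOUNG. Col10a1 stood at 7.85, 6.47 and 9.02 CPM in CON-YOUNG, 0.942, 1.49 and 0.851 CPM in OLD and 2.20, 3.15 and 233 CPM in YOUNG. It too was highest in YOUNG 3, CON-OLD-iBP 1 and CKO-OLD 3, whereas CKO-YOUNG and CON-YOUNG held it between 6.47 and 9.02 CPM in all 6 libraries.

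In all, 8 collagen genes (Col2a1, Col9a1, Col9a2, Col9a3, Col10a1, Col11a1, Col11a2 and Col27a1) had YOUNG 3, CKO-OLD 3 and CON-OLD-iBP 1 as their 3 highest libraries. They were 19.0% of the 42 collagen genes tested, against 141 (0.851%) of the 16566 genes tested. The 3 libraries were picked from the levels of these same genes, so the excess was fixed by that choice and is no test. For Col11a1 and Col27a1 the third highest library was only 1.12-fold and 1.1-fold above the fourth. The 3 libraries belong to different groups and all lie in set 3. Summed over 12 chondrocyte markers other than collagens, the level was 4008 CPM in CON-OLD-iBP 1, 2255 CPM in CKO-OLD 3 and 2480 CPM in YOUNG 3. By group the sums were 797 to 4008 CPM in CON-OLD-iBP, 317 to 2255 CPM in CKO-OLD, 10.2 to 59.2 CPM in CKO-YOUNG, 14.2 to 1163 CPM in CON-YOUNG, 691 to 1079 CPM in OLD and 36.6 to 2480.0 CPM in YOUNG. In CON-OLD-iBP 1, CKO-OLD 3 and YOUNG 3 the marker Comp alone was at 3184, 1551 and 1524 CPM, and the other 11 markers summed to 825, 704 and 956 CPM. The markers did not track Col2a1 in every library. CKO-YOUNG 1 and 2 and CON-YOUNG 1 and 2 had 602 to 1404 CPM of Col2a1 with marker sums of 10.2 to 17.8 CPM, where Acan, the cartilage proteoglycan, was at 0.08 to 1.18 CPM and 5 to 7 of the 12 markers were at 0. The OLD libraries had marker sums of 691 to 1079 CPM, of which Comp was 610 to 1059 CPM, with 12.2 to 24.2 CPM of Col2a1. The part of cartilage-type cells in the Col2a1 differences between groups was not tested.

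**Figure D2:**
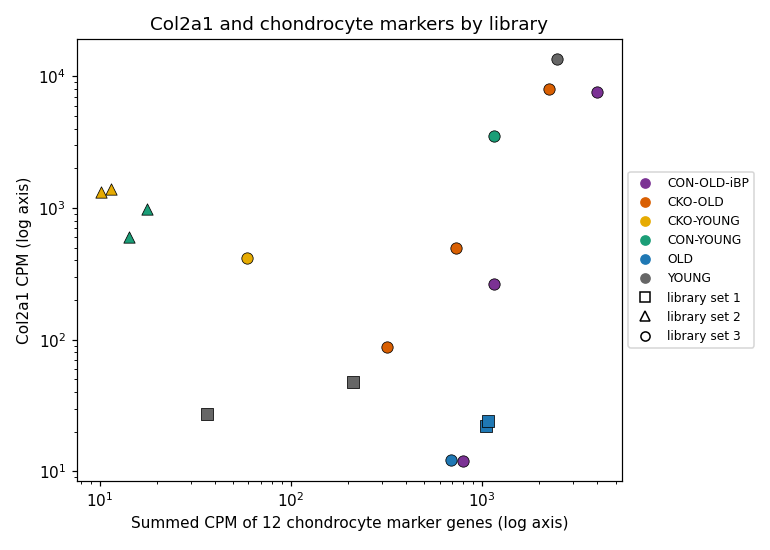
Col2a1 level (CPM, log axis) against the summed level of 12 chondrocyte markers (CPM, log axis), one point a library, coloured by group and shaped by library set. YOUNG 3, CKO-OLD 3 and CON-OLD-iBP 1 sit at the upper right, while CKO-YOUNG 1 and 2 and CON-YOUNG 1 and 2 have 602 to 1404 CPM of Col2a1 at marker sums of 10.2 to 17.8 CPM.

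The network collagens were led by the basement membrane chains. Col4a1 was measured at 151, 980.4 and 163 CPM in CON-OLD-iBP libraries 1, 2 and 3, 313, 579 and 630.0 CPM in CKO-OLD and 2257, 2566 and 1095 CPM in CKO-YOUNG. Col4a1 stood at 2033, 1878 and 314 CPM in CON-YOUNG, 356, 667 and 353 CPM in OLD and 329, 380.1 and 243 CPM in YOUNG. Col4a2, its partner in the common type IV molecule, was measured at 173, 853 and 173 CPM in CON-OLD-iBP libraries 1, 2 and 3, 301, 489.7 and 549.9 CPM in CKO-OLD and 1511, 1717 and 991 CPM in CKO-YOUNG. Col4a2 stood at 1378, 1309 and 325 CPM in CON-YOUNG, 340.5, 585 and 335 CPM in OLD and 293, 332 and 279.6 CPM in YOUNG. CKO-YOUNG 1 and 2 and CON-YOUNG 1 and 2 were the highest 4 libraries for both chains, and CON-OLD-iBP 2 stood well above CON-OLD-iBP 1 and 3. The restricted type IV chains were low. Col4a5 had means of 29.3 ± 11.8 CPM in CON-OLD-iBP, 39.6 ± 5.75 CPM in CKO-OLD, 10.5 ± 10.8 CPM in CKO-YOUNG, 25.7 ± 24.0 CPM in CON-YOUNG, 51.3 ± 2.62 CPM in OLD and 61.1 ± 17.9 CPM in YOUNG, with the values of CKO-YOUNG 1 and 2 and CON-YOUNG 1 and 2 (4.01 to 12.5 CPM) below those of the other libraries. Col4a6, encoded beside Col4a5, had means of 0.834 ± 0.570 CPM in CON-OLD-iBP, 0.546 ± 0.437 CPM in CKO-OLD, 0.206 ± 0.269 CPM in CKO-YOUNG, 0.748 ± 1.23 CPM in CON-YOUNG, 2.21 ± 1.10 CPM in OLD and 1.91 ± 0.384 CPM in YOUNG. Col4a3 and Col4a4, chains of the kidney filter, stayed at most 0.735 and 0.881 CPM. Col8a1, a chain of hexagonal networks under some epithelia and in vessel walls, had means of 299.9 ± 122 CPM in CON-OLD-iBP, 310.2 ± 58.4 CPM in CKO-OLD, 458 ± 29.5 CPM in CKO-YOUNG, 606 ± 314 CPM in CON-YOUNG, 272 ± 158 CPM in OLD and 278 ± 159 CPM in YOUNG. Its partner Col8a2 had means of 9.19 ± 5.06 CPM in CON-OLD-iBP, 41.7 ± 1.73 CPM in CKO-OLD, 17.8 ± 27.2 CPM in CKO-YOUNG, 8.03 ± 12.7 CPM in CON-YOUNG, 14.3 ± 7.82 CPM in OLD and 25.9 ± 13.8 CPM in YOUNG. Col8a2 was low in set 2, at 0.294 to 2.76 CPM, while Col8a1 there was at 432 to 885 CPM.

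Col12a1, a FACIT collagen on type I fibrils, was measured at 1470.4, 1535 and 667 CPM in CON-OLD-iBP libraries 1, 2 and 3, 1127, 3416 and 2006 CPM in CKO-OLD and 5409, 4902 and 4332 CPM in CKO-YOUNG. Col12a1 stood at 5224, 5182 and 1753 CPM in CON-YOUNG, 824, 1377 and 807 CPM in OLD and 837, 1278 and 2347 CPM in YOUNG. All CKO-YOUNG libraries and CON-YOUNG 1 and 2 were above the rest. Col14a1, a related collagen of fibril surfaces, had means of 1.54 ± 1.39 CPM in CON-OLD-iBP, 5.61 ± 2.82 CPM in CKO-OLD, 3.25 ± 5.00 CPM in CKO-YOUNG, 0.630 ± 0.285 CPM in CON-YOUNG, 4.13 ± 2.19 CPM in OLD and 6.43 ± 10.2 CPM in YOUNG. Col16a1, a FACIT collagen made by many mesenchymal cells, was measured at 95.7, 137 and 83.4 CPM in CON-OLD-iBP libraries 1, 2 and 3, 130.0, 137 and 113 CPM in CKO-OLD and 221, 213 and 294 CPM in CKO-YOUNG. Col16a1 stood at 259.5, 255 and 149.5 CPM in CON-YOUNG, 149, 125 and 145 CPM in OLD and 96.3, 92.8 and 134 CPM in YOUNG. All 6 libraries of CKO-YOUNG and CON-YOUNG were at 149.5 CPM or more, and the highest of the other 12 was OLD 1 at 149 CPM. Col20a1, a little studied FACIT collagen, was measured at 16.3, 3.17 and 9.75 CPM in CON-OLD-iBP libraries 1, 2 and 3, 1.47, 0.736 and 1.41 CPM in CKO-OLD and 0.456, 0.389 and 0.963 CPM in CKO-YOUNG. Col20a1 stood at 0.518, 0.368 and 2.67 CPM in CON-YOUNG, 0.623, 1.08 and 1.15 CPM in OLD and 1.03, 0.478 and 7.01 CPM in YOUNG. CON-OLD-iBP lay above all CKO-OLD and OLD libraries. Col22a1, a collagen of tissue junctions, had means of 0.249 ± 0.317 CPM in CON-OLD-iBP, 0.533 ± 0.466 CPM in CKO-OLD, 0.811 ± 1.17 CPM in CKO-YOUNG, 0.741 ± 0.452 CPM in CON-YOUNG, 0.784 ± 0.450 CPM in OLD and 5.80 ± 4.02 CPM in YOUNG.

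In the beaded class, Col6a1 and Col6a2 form the microfibril with Col6a3 in most tissues. Col6a1 was measured at 1785, 689.8 and 499 CPM in CON-OLD-iBP libraries 1, 2 and 3, 690.1, 1233 and 1322 CPM in CKO-OLD and 3314, 2391 and 2647 CPM in CKO-YOUNG. Col6a1 stood at 5045, 3483 and 1101 CPM in CON-YOUNG, 1631, 513 and 1648 CPM in OLD and 598, 549.9 and 2405 CPM in YOUNG. Col6a2 had means of 689 ± 545 CPM in CON-OLD-iBP, 841 ± 304 CPM in CKO-OLD, 2039.8 ± 335 CPM in CKO-YOUNG, 2273 ± 1452 CPM in CON-YOUNG, 898 ± 523 CPM in OLD and 915 ± 924 CPM in YOUNG. Col6a3 was measured at 2698, 1378 and 735 CPM in CON-OLD-iBP libraries 1, 2 and 3, 371, 580.0 and 1207 CPM in CKO-OLD and 3400.1, 3489 and 1195 CPM in CKO-YOUNG. Col6a3 stood at 4079, 3592 and 725 CPM in CON-YOUNG, 402, 460.2 and 410.0 CPM in OLD and 246, 462 and 2153 CPM in YOUNG. The chains parted within OLD, where libraries 1 and 3 were above library 2 for Col6a1 and below it for Col6a3. Of the chains that can take the place of Col6a3, Col6a4 had means of 0.249 ± 0.0660 CPM in CON-OLD-iBP, 0.0233 ± 0.0404 CPM in CKO-OLD, 1.80 ± 0.796 CPM in CKO-YOUNG, 3.01 ± 2.61 CPM in CON-YOUNG, 0.0435 ± 0.0753 CPM in OLD and 0.133 ± 0.124 CPM in YOUNG, and Col6a5 had means of 0.643 ± 0.430 CPM in CON-OLD-iBP, 0.0233 ± 0.0404 CPM in CKO-OLD, 1.28 ± 2.22 CPM in CKO-YOUNG, 0.0612 ± 0.106 CPM in CON-YOUNG, 0.0199 ± 0.0345 CPM in OLD and 0.154 ± 0.159 CPM in YOUNG, of which CKO-YOUNG 3 alone had 3.84 CPM.

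Among the other collagens, the transmembrane Col13a1 was measured at 0, 0 and 0 CPM in CON-OLD-iBP libraries 1, 2 and 3, 0.483, 0 and 0 CPM in CKO-OLD and 0, 0.0883 and 0.0875 CPM in CKO-YOUNG. Col13a1 stood at 0, 0 and 0 CPM in CON-YOUNG, 0.971, 0.0707 and 1.13 CPM in OLD and 6.96, 3.80 and 0.618 CPM in YOUNG. Col13a1 was read in all 3 libraries of OLD and of YOUNG, and at 0 in all 3 of CON-OLD-iBP and of CON-YOUNG. Col17a1, of the adhesion complexes of epithelia, had means of 1.65 ± 0.269 CPM in CON-OLD-iBP, 0.618 ± 0.228 CPM in CKO-OLD, 0.160 ± 0.218 CPM in CKO-YOUNG, 0.388 ± 0.230 CPM in CON-YOUNG, 0.320 ± 0.202 CPM in OLD and 0.808 ± 0.923 CPM in YOUNG, and Col23a1, another transmembrane collagen, had 6.32 ± 3.93 CPM in CON-OLD-iBP, 5.61 ± 2.61 CPM in CKO-OLD, 2.66 ± 3.04 CPM in CKO-YOUNG, 1.05 ± 0.338 CPM in CON-YOUNG, 3.32 ± 0.478 CPM in OLD and 3.55 ± 0.605 CPM in YOUNG. Col7a1, the collagen of anchoring fibrils, was measured at 54.9, 46.1 and 93.6 CPM in CON-OLD-iBP libraries 1, 2 and 3, 107, 43.2 and 39.9 CPM in CKO-OLD and 9.15, 15.6 and 30.8 CPM in CKO-YOUNG. Col7a1 stood at 7.23, 13.9 and 226 CPM in CON-YOUNG, 12.2, 41.8 and 12.2 CPM in OLD and 11.1, 12.1 and 24.5 CPM in YOUNG. CON-YOUNG 3 was the highest for Col7a1 and CON-YOUNG 1 the lowest. The multiplexins lie in basement membrane zones, and the end of the collagen XVIII chain is the source of endostatin. Col18a1 was measured at 8.42, 31.0 and 10.4 CPM in CON-OLD-iBP libraries 1, 2 and 3, 75.5, 122 and 52.6 CPM in CKO-OLD and 161, 146 and 121 CPM in CKO-YOUNG. Col18a1 stood at 168, 119 and 16.8 CPM in CON-YOUNG, 102, 21.6 and 107 CPM in OLD and 86.9, 65.1 and 38.4 CPM in YOUNG. All CON-OLD-iBP libraries were below all CKO-OLD libraries. Col15a1 had means of 16.1 ± 24.5 CPM in CON-OLD-iBP, 26.2 ± 4.57 CPM in CKO-OLD, 114 ± 92.4 CPM in CKO-YOUNG, 129 ± 118 CPM in CON-YOUNG, 9.94 ± 5.16 CPM in OLD and 12.5 ± 8.05 CPM in YOUNG, with 146 to 233 CPM in set 2 and at most 44.4 CPM elsewhere. Col28a1 had means of 1.02 ± 0.683 CPM in CON-OLD-iBP, 1.65 ± 0.983 CPM in CKO-OLD, 0.515 ± 0.349 CPM in CKO-YOUNG, 0.722 ± 0.590 CPM in CON-YOUNG, 0.975 ± 0.640 CPM in OLD and 2.00 ± 2.50 CPM in YOUNG, Col25a1 was at most 0.752 CPM, and Col26a1 was read at 0.220, 0.336 and 2.12 CPM in CKO-YOUNG, at 0.0714 CPM in CKO-OLD 3, at 0.161 CPM in CON-YOUNG 3 and at 0 in the rest.

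**Figure D3:**
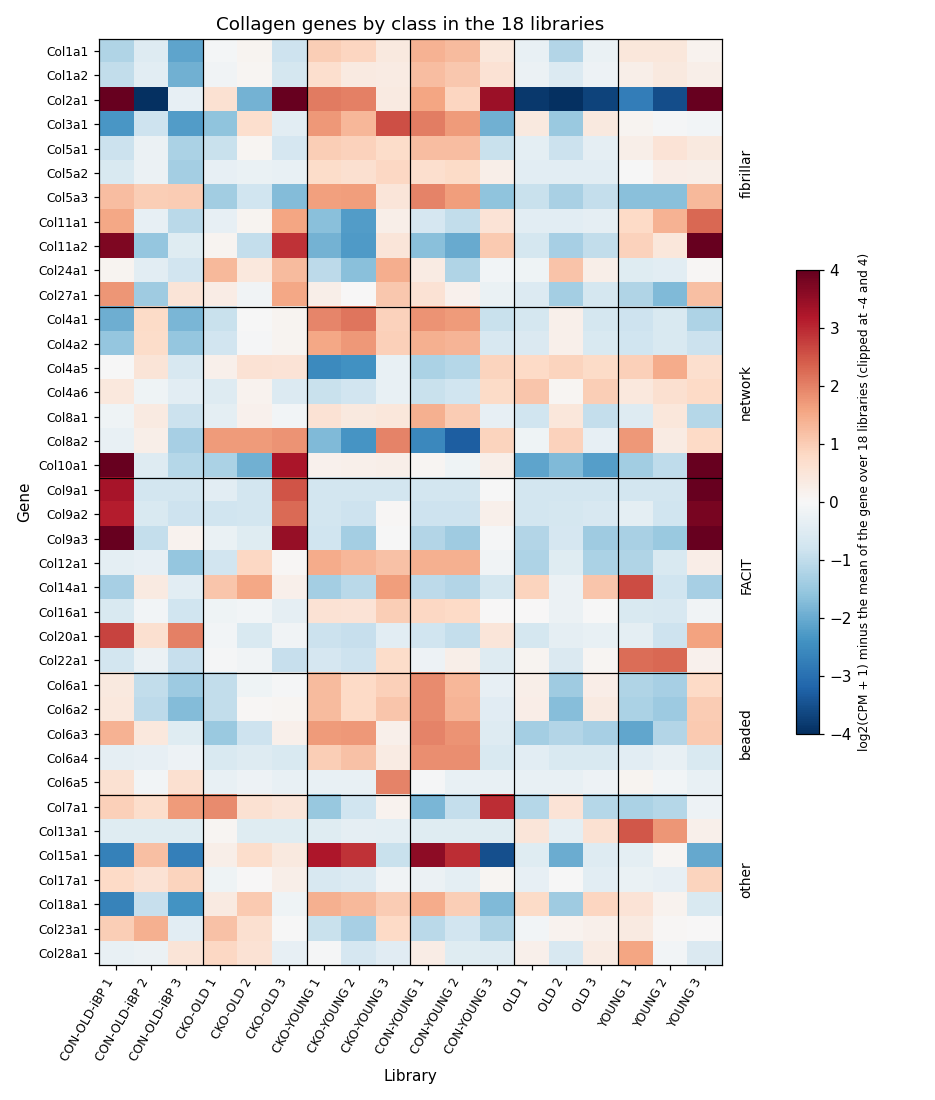
Level of each collagen gene with at least 1 CPM in a group mean, in each of the 18 libraries, as log2(CPM + 1) minus the mean of the gene over the libraries, clipped at 4 to either side, with genes in rows by class and libraries in columns by group. The 8 genes of the cartilage pattern are high in YOUNG 3, CKO-OLD 3 and CON-OLD-iBP 1, and CKO-YOUNG 1 and 2 and CON-YOUNG 1 and 2 are high in Col4a1, Col4a2 and Col15a1.

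Several pairs of chains that assemble together kept closer ratios than their levels. These are ratios of CPM without a correction for length, so only their spread between libraries is read. Over the 18 libraries Col6a1 over Col6a2 ran from 1.21 to 1.73, with an SD of 0.143 on the log2 scale, against 1.05 for Col6a1 and 1.15 for Col6a2 alone. Col4a1 over Col4a2 ran from 0.869 to 1.49 (SD 0.247 on the log2 scale), although Col4a1 spanned 17.1-fold and Col4a2 9.95-fold. Col1a1 over Col1a2 ran from 0.885 to 1.94 (SD 0.243). The type V ratio Col5a1 over Col5a2 was looser, from 0.304 to 0.995 (SD 0.423). Other ratios spread further. Col6a3 over Col6a2 ran from 0.332 to 2.95, Col3a1 over Col1a1 from 0.0262 to 0.629, and Col8a1 over Col8a2 from 5.54 to 2271.

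**Figure D4:**
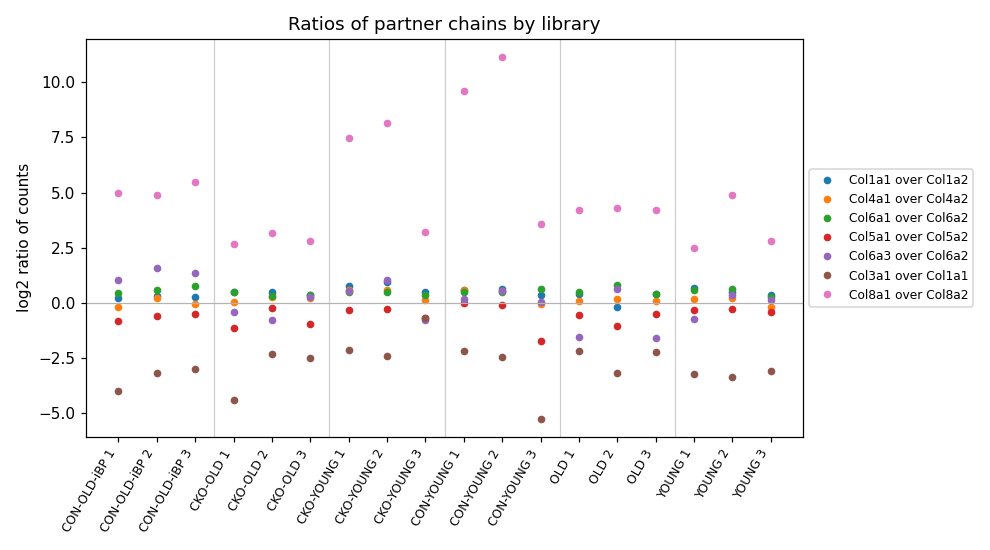
Log2 ratio of the counts of 2 collagen chains in each of the 18 libraries, coloured by pair, for 7 pairs. Col6a1 over Col6a2 (1.21 to 1.73) is the tightest on the linear scale and Col8a1 over Col8a2 (5.54 to 2271) the widest.

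Libraries of the same group differed widely in many collagen genes. The within-group SD of log2(CPM + 1) had a median of 0.784 over the 42 collagen genes tested and 0.313 over all 16566 genes. Among genes with a mean of at least 10 CPM the medians were 1.03 for 25 collagen genes and 0.306 for 9588 genes. Col2a1 had the widest spread, 3.14, and Col5a2 (0.270) and Col16a1 (0.294) were among the tightest. The library sets cross the groups here: in CKO-YOUNG and in CON-YOUNG, replicates 1 and 2 are in set 2 and replicate 3 in set 3. For 9 collagen genes (Col12a1, Col15a1, Col1a1, Col4a1, Col4a2, Col5a1, Col5a3, Col6a3 and Col6a4) both replicates 1 and 2 of the 2 groups were above both replicates 3, as for 20.6% of all genes, and for 12 (Col4a5, Col4a6, Col7a1, Col8a2, Col9a2, Col9a3, Col10a1, Col11a1, Col11a2, Col14a1, Col17a1 and Col20a1) they were below, as for 24.4% of all genes. Both shares of the 42 (9 and 12 genes) are near that background.

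Across all 6 groups at once, 12 of the 42 collagen genes differed (edgeR quasi-likelihood F test, adjusted p under 0.05), which is 28.6% of them, against 18.0% of all genes tested. They were Col1a1, Col1a2, Col3a1, Col5a1, Col5a2, Col4a1, Col4a2, Col12a1, Col16a1, Col20a1, Col6a4 and Col13a1: 5 fibrillar, 2 network, 3 FACIT, 1 beaded and 1 transmembrane. Col5a2 had the smallest edgeR adjusted p, 0.00501. None of the cartilage collagens was among them. At an unadjusted p under 0.05 there were 19, against 37.4% of all genes. The fit with a term for library set called 1 of the 42 (4.11% of all genes) and the fit without set 1 called 0, whereas DESeq2 called 21 (36.8% of all genes) and limma-voom 11 (18.9%). Leaving out each library in turn gave 5 (without CKO-YOUNG 2, 9.19% of all genes) to 20 (without CON-YOUNG 3, 31.7%).

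The deletion was compared at the young age in CKO-YOUNG against CON-YOUNG. No collagen gene changed by edgeR, with 0.127% of all genes called. With a term for library set 1 collagen gene passed (0.561% of all genes): Col4a5 fell, at a log2 fold change of -1.38 (edgeR adjusted p = 0.0369). Within set 3, where CKO-YOUNG 3 and CON-YOUNG 3 are single libraries that borrow the spread of the others, 3 passed (6.72% of all genes): Col3a1 at 4.51 (edgeR adjusted p = 0.0234), Col5a3 at 2.14 (edgeR adjusted p = 0.00847) and Col7a1 at -2.88 (edgeR adjusted p = 0.0419). With the replicate number as a block, in a fit of these groups alone, none passed. At an unadjusted p under 0.05 there was 1 of 42 (5.48% of all genes), and DESeq2 and limma-voom each called 0. Col1a1 averaged 21473 ± 4475 CPM in CKO-YOUNG and 26781 ± 8271 CPM in CON-YOUNG (log2 fold change -0.32, SE 0.39, edgeR adjusted p = 1). Col1a2 averaged 12786 ± 1768 CPM in CKO-YOUNG and 18446 ± 4268 CPM in CON-YOUNG (log2 fold change -0.53, SE 0.32, edgeR adjusted p = 1). Both type I differences were within the spread of the libraries. Col3a1 averaged 6771 ± 3178 CPM in CKO-YOUNG and 4398 ± 3503 CPM in CON-YOUNG (log2 fold change 0.62, SE 0.79, edgeR adjusted p = 1). The smallest p-values belonged to Col7a1 at a log2 fold change of -2.15 (SE 0.99, edgeR adjusted p = 0.903), Col4a5 at -1.29 (SE 0.65, edgeR adjusted p = 0.955), Col23a1 at 1.34 (SE 0.71, edgeR adjusted p = 0.973) and Col6a5 at 4.32 (SE 2.42, edgeR adjusted p = 0.991). Single libraries set the direction of 3 of these: without CON-YOUNG 3 the log2 fold change of Col7a1 was 0.81, and without CKO-YOUNG 3, the only CKO-YOUNG library with a count of Col6a5, it was -0.20 for Col23a1 and a fitted -4.90, with no count left in CKO-YOUNG, for Col6a5. The libraries did not overlap for 1 gene, Col26a1, higher in CKO-YOUNG (1 of 42 genes, 2.38%, against 5.32% of all genes), and for no gene lower (3.19%). Leaving out a library gave 1 to 3 higher genes, with 3 without CKO-YOUNG 3 (12.6% of all genes) or CON-YOUNG 3 (11.9%), and 0 to 9 lower, with 9 without CON-YOUNG 3 (10.1%). The median log2 fold change was -0.11 over the collagen genes and -0.01 over all genes. It was 0.15 with a term for library set, 0.17 by limma-voom, 1.05 within set 3, -0.39 without CKO-YOUNG 3 and 0.28 without CON-YOUNG 1, so its sign depends on the setting.

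At the old age, CKO-OLD was set against OLD, which differ in mouse line as well as in the deletion, so the deletion and the line cannot be told apart. CKO-OLD lies wholly in set 3 and OLD has 1 library there. OLD 1 and 3 had Xist and no Ddx3y, while CKO-OLD had Ddx3y and at most 0.404 CPM of Xist. Sex by these genes therefore differs in part as well. No collagen gene changed by edgeR (0.00604% of all genes called). At an unadjusted p under 0.05 there were 4 of 42, against 8.16% of all genes, and DESeq2 and limma-voom each called 0. Col2a1 had the smallest p, at a log2 fold change of 7.20 (SE 2.60, edgeR adjusted p = 0.523). Its values were 499, 87.4 and 8014 CPM in CKO-OLD, against 21.9, 12.2 and 24.2 CPM in OLD, so the libraries do not overlap but CKO-OLD 3 sets most of the mean. The chondrocyte markers summed to 731, 317 and 2255 CPM in CKO-OLD and to 690.7 to 1079 CPM in OLD, of which Comp made up 610 to 1059 CPM. Without Comp the other 11 summed to 77.2, 51.4 and 704 CPM in CKO-OLD, against 18.0, 81.0 and 19.7 CPM in OLD. Acan was at 16.3, 3.10 and 501 CPM in CKO-OLD, against 0.0724, 0.495 and 0 CPM in OLD. Of the 12 markers 4 (Acan, Chad, Cnmd and Ihh) were higher in all CKO-OLD libraries, like Col2a1 (8.9% of all genes), and none was lower in all of them (8.47%). Col10a1 had a log2 fold change of 4.67 (SE 1.98, edgeR adjusted p = 0.586), Col12a1 of 1.12 (SE 0.50, edgeR adjusted p = 0.594) and Col9a3 of 4.60 (SE 2.25, edgeR adjusted p = 0.628). With a term for library set Col9a3 turned to -0.16. Col1a1 averaged 10889 ± 3342 CPM in CKO-OLD and 8781 ± 2716 CPM in OLD (log2 fold change 0.31, SE 0.39, edgeR adjusted p = 0.883), Col1a2 had a log2 fold change of 0.10 (SE 0.32, edgeR adjusted p = 0.967) and Col3a1 of -0.16 (SE 0.78, edgeR adjusted p = 0.98). Without set 1 Col3a1 turned to 1.31, and without CKO-OLD 2 Col1a2 turned to -0.066. The log2 fold change was positive in 30 of 42 collagen genes, and its median was 0.33, against -0.01 over all genes. The median was 0.57 with a term for library set, 0.97 without set 1, where 34 of 42 were positive, and 0.12 without CKO-OLD 2. The libraries did not overlap for 7 genes higher in CKO-OLD (Col2a1, Col5a2, Col8a2, Col9a3, Col11a1, Col15a1 and Col27a1; 8.9% of all genes were non-overlapping and higher) and 1 lower (Col4a5; 8.47% of all genes). Leaving out a library gave 7 to 13 higher genes, with 13 without CKO-OLD 3 (11.7% of all genes) or OLD 2 (24.4%), and 1 to 7 lower, with 7 without OLD 2 (27.4%). Against a floor of 3 counts over the OLD group, Col9a1 was at least 189-fold higher in CKO-OLD, through CKO-OLD 3.

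With CKO-YOUNG and CKO-OLD together against CON-YOUNG and OLD, no collagen gene changed by edgeR (0.531% of all genes called), 1 of 42 had an unadjusted p under 0.05 (8.38% of all genes), and DESeq2 and limma-voom called 0. Col23a1 had a log2 fold change of 1.05 (SE 0.50, edgeR adjusted p = 0.601), Col2a1 of 3.25 (SE 1.53, edgeR adjusted p = 0.597), Col10a1 of 2.41 (SE 1.27, edgeR adjusted p = 0.668) and Col12a1 of 0.70 (SE 0.35, edgeR adjusted p = 0.641). For the type I genes the log2 fold changes were near 0, at -0.00 (SE 0.27, edgeR adjusted p = 1) for Col1a1 and -0.21 (SE 0.23, edgeR adjusted p = 0.891) for Col1a2, and Col3a1 had 0.23 (SE 0.55, edgeR adjusted p = 0.974). This comparison holds the same libraries as the preceding pair of comparisons. The difference between the deletion effects at the old and the young age was tested in the same fit, and no collagen gene and no other gene was called.

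Age in mice without Cre was compared in OLD against YOUNG. Of the 11 fibrillar genes 9 had a negative log2 fold change and 7 were lower in all OLD libraries, but none passed the test: edgeR called 0 of 42 collagen genes and 0.0% of all genes, DESeq2 and limma-voom called 0 collagen genes, and 10 of 42 had an unadjusted p under 0.05, against 3.34% of all genes. Col1a1 averaged 8781 ± 2716 CPM in OLD and 16080.4 ± 1997 CPM in YOUNG (log2 fold change -0.87, SE 0.39, edgeR adjusted p = 1). Col1a2 averaged 7407 ± 888 CPM in OLD and 11268 ± 744 CPM in YOUNG (log2 fold change -0.61, SE 0.32, edgeR adjusted p = 1). Every OLD library was below every YOUNG library for both type I chains. Col5a2 averaged 1780.5 ± 5.69 CPM in OLD and 2680.1 ± 278 CPM in YOUNG (log2 fold change -0.59, SE 0.23, edgeR adjusted p = 1), and Col11a1 averaged 144 ± 3.01 CPM in OLD and 586 ± 309.9 CPM in YOUNG (log2 fold change -2.03, SE 0.77, edgeR adjusted p = 1). Col3a1 overlapped, at 1706 ± 944 CPM in OLD and 1704 ± 137 CPM in YOUNG (log2 fold change 0.00, SE 0.78, edgeR adjusted p = 1), and Col24a1 had a positive value, at means of 8.58 CPM in OLD and 4.59 CPM in YOUNG. Col2a1 had the largest fitted difference, at -7.87 (SE 2.67, edgeR adjusted p = 1) on the log2 scale, with 13548 CPM in YOUNG 3 and 48.0 and 27.4 CPM in YOUNG 1 and 2. Col10a1 had -6.18 (SE 2.12, edgeR adjusted p = 1), with YOUNG 3 at 233 CPM and YOUNG 1 and 2 at 2.20 and 3.15 CPM. YOUNG 3 also held 2480 CPM of chondrocyte markers against 212 and 36.6 CPM in YOUNG 1 and 2.

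In OLD against YOUNG the libraries did not overlap for 10 collagen genes lower in OLD, which is 23.8% of the 42, against 5.63% of all genes. They were 7 of the 11 fibrillar genes (Col1a1, Col1a2, Col2a1, Col5a1, Col5a2, Col11a1 and Col11a2), Col10a1, Col22a1 and Col25a1. Col4a2 was the 1 gene higher in OLD, against 5.73% of all genes. Leaving out any single library left 10 to 15 lower genes, with 15 without YOUNG 3 (17.4% of all genes), and 1 to 5 higher, with 5 without OLD 2 (14.2%) or YOUNG 3 (14.9%). The median log2 fold change was -0.75 over the collagen genes and -0.03 over all genes, and -0.86 with genes at 0 in a group placed at their bound. Without YOUNG 3 it was -0.13, with 17 genes positive and 23 negative. By class the median was -0.91 in fibrillar, -2.23 in FACIT, -1.17 in beaded and 0.21 in network genes, and without YOUNG 3 it was -0.63 in fibrillar, -0.042 in FACIT, 0.26 in beaded and 0.058 in network genes. Col9a1 was at least 618-fold lower in OLD against the floor of 3 counts, through YOUNG 3. OLD 1 and 3 and YOUNG 1 and 2 belong to set 1, and OLD 2 and YOUNG 3 to set 3. Within set 1 Col1a1 was at 10219 and 10476 CPM in OLD and 17329 and 17135 CPM in YOUNG, and within set 3 at 5648 CPM in OLD 2 and 13778 CPM in YOUNG 3, so the order held in both sets.

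Age with the deletion was compared in CKO-OLD against CKO-YOUNG. Here CKO-OLD lies in set 3 and CKO-YOUNG has 2 libraries in set 2 and 1 in set 3. Collagen genes of several classes stood lower in CKO-OLD, yet edgeR called 0 of 42 (0.7% of all genes called). DESeq2 called 9 of 42 (12.7% of all genes), limma-voom called 1 (1.53%), and 15 of 42 had an unadjusted p under 0.05, against 24.5% of all genes. Col5a2 averaged 1939 ± 33.9 CPM in CKO-OLD and 3978 ± 262 CPM in CKO-YOUNG (log2 fold change -1.04, SE 0.23, edgeR adjusted p = 0.052). Col16a1 averaged 127 ± 12.1 CPM in CKO-OLD and 243 ± 44.3 CPM in CKO-YOUNG (log2 fold change -0.94, SE 0.24, edgeR adjusted p = 0.0626). Both were lower in all CKO-OLD libraries and narrowly missed the threshold. Col5a3 had a log2 fold change of -2.65 (SE 0.83, edgeR adjusted p = 0.0902), Col5a1 of -1.32 (SE 0.43, edgeR adjusted p = 0.0988) and Col3a1 of -2.15 (SE 0.82, edgeR adjusted p = 0.134). The type I differences were -0.98 (SE 0.39, edgeR adjusted p = 0.147) for Col1a1 and -0.69 (SE 0.32, edgeR adjusted p = 0.203) for Col1a2. Without CKO-YOUNG 3, the only CKO-YOUNG library of set 3, 7 collagen genes were called (15.7% of all genes).

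The libraries of CKO-OLD and CKO-YOUNG did not overlap for 15 collagen genes lower in CKO-OLD, 35.7% of the 42, against 15.2% of all genes. These were Col1a1, Col1a2, Col3a1, Col5a1, Col5a2, Col5a3, Col4a1, Col4a2, Col8a1, Col12a1, Col16a1, Col6a1, Col6a2, Col6a4 and Col26a1. Col4a5 and Col7a1 were higher in all CKO-OLD libraries (16.3% of all genes). Leaving out a library gave 15 to 18 lower genes, against 16.9% to 30.4% of all genes, with 18 without CKO-YOUNG 3 (30.4%). It gave 2 to 13 higher, with 13 without CKO-YOUNG 3 (32.1% of all genes). All 5 beaded genes tested had a negative log2 fold change, with a median of -1.91, and fibrillar genes had a median of -0.69, while the network and FACIT medians were 1.23 and 0.89. With a term for library set these medians were -0.80 in beaded, -0.43 in fibrillar, -0.12 in network and -0.072 in FACIT genes. Without CKO-YOUNG 3 the median over all 42 was 1.29, against -0.16 with it. Osteoblast markers stood the other way in sum, with 11082 to 12902 CPM in CKO-OLD and 2299 to 3488 CPM in CKO-YOUNG. Most of that was Spp1, at 11960, 11520 and 10340 CPM in CKO-OLD and 2351, 1847 and 1486 CPM in CKO-YOUNG. Alpl overlapped, at 334.6, 671.8 and 307.6 CPM in CKO-OLD and 788.5, 580.3 and 570.2 CPM in CKO-YOUNG. Chondrocyte markers were higher in CKO-OLD as well, with 317 to 2255 CPM in CKO-OLD and 10.2 to 59.2 CPM in CKO-YOUNG. Macrophage and monocyte markers were too, with 1304 to 5623 CPM in CKO-OLD and 143 to 918 CPM in CKO-YOUNG. By single genes, 4 of 12 osteoblast, 5 of 12 chondrocyte and 11 of 16 macrophage markers were higher in all CKO-OLD libraries (16.3% of all genes), and no marker of these lists was lower in all (15.2%). The 9 pericyte and smooth muscle markers summed to 1543 to 2053 CPM in CKO-OLD and 5766 to 7516 CPM in CKO-YOUNG, and 8 of them were lower in all CKO-OLD libraries (15.2% of all genes), while Cspg4 was higher. The part of these markers in the collagen differences was not tested. OLD and YOUNG share no library with CKO-OLD and CKO-YOUNG. The log2 fold changes of CKO-OLD against CKO-YOUNG and of OLD against YOUNG were -0.98 and -0.87 for Col1a1, -0.69 and -0.61 for Col1a2, -1.04 and -0.59 for Col5a2, and -2.15 and 0.00 for Col3a1. The test of the difference between the 2 age effects called no gene.

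The iBP group was set against OLD, of another line and partly of another set, and against CKO-OLD, which differs from it in genotype as well as in iBP. OLD 1 and 3 also differ from the iBP group in sex by Xist and Ddx3y. Neither comparison isolates iBP, and they share the CON-OLD-iBP libraries. Macrophage and monocyte markers summed to 519.9 to 913 CPM in CON-OLD-iBP, against 1304 to 5623 CPM in CKO-OLD and 1353 to 10599 CPM in OLD. Of the 16, 12 were lower in all CON-OLD-iBP than in all CKO-OLD libraries (16.0% of all genes) and 11 lower than in all OLD libraries (15.8% of all genes), and their part in the collagen differences was not tested. Against OLD, in which OLD 2 alone lies in set 3, edgeR called 0 of 42 collagen genes (0.0241% of all genes), DESeq2 4 (13.6% of all genes) and limma-voom 0, and 10 had an unadjusted p under 0.05 (23.4% of all genes). Col20a1 averaged 9.74 ± 6.55 CPM in CON-OLD-iBP and 0.950 ± 0.286 CPM in OLD (log2 fold change 3.35, SE 0.99, edgeR adjusted p = 0.0748). Col18a1 averaged 16.6 ± 12.5 CPM in CON-OLD-iBP and 76.9 ± 47.9 CPM in OLD (log2 fold change -2.21, SE 0.75, edgeR adjusted p = 0.102). Col2a1 had a log2 fold change of 7.07 (SE 2.58, edgeR adjusted p = 0.123) and Col10a1 of 5.94 (SE 2.09, edgeR adjusted p = 0.113), both led by CON-OLD-iBP 1, where chondrocyte markers summed to 4008 CPM, against 690.7 to 1079 CPM in OLD. The type I genes overlapped, at -0.62 (SE 0.39, edgeR adjusted p = 0.351) for Col1a1 and -0.65 (SE 0.32, edgeR adjusted p = 0.233) for Col1a2, and Col3a1 had -1.61 (SE 0.80, edgeR adjusted p = 0.242). The libraries did not overlap for 8 genes higher in CON-OLD-iBP (Col5a3, Col6a3, Col6a4, Col6a5, Col7a1, Col10a1, Col17a1 and Col20a1; 14.3% of all genes) and 2 lower (Col4a5 and Col13a1; 15.8% of all genes). Leaving out a library gave 8 to 12 higher genes, with 12 without CON-OLD-iBP 2 (23.7% of all genes) or CON-OLD-iBP 3 (20.7%), and 2 to 13 lower, with 13 without CON-OLD-iBP 2 (24.2%) and 10 without OLD 2 (28.9%). Col9a1 was at least 328-fold higher in CON-OLD-iBP, through library 1.

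Against CKO-OLD, whose libraries all lie in set 3 as those of CON-OLD-iBP do, edgeR called 0 of 42 collagen genes (1.29% of all genes), DESeq2 3 (9.0% of all genes) and limma-voom 0, and 6 had an unadjusted p under 0.05 (19.6% of all genes). Col18a1 averaged 16.6 ± 12.5 CPM in CON-OLD-iBP and 83.4 ± 35.4 CPM in CKO-OLD (log2 fold change -2.33, SE 0.75, edgeR adjusted p = 0.114). Col20a1 averaged 9.74 ± 6.55 CPM in CON-OLD-iBP and 1.20 ± 0.407 CPM in CKO-OLD (log2 fold change 3.01, SE 0.98, edgeR adjusted p = 0.117). Col5a3 averaged 226 ± 21.2 CPM in CON-OLD-iBP and 44.1 ± 15.7 CPM in CKO-OLD (log2 fold change 2.36, SE 0.82, edgeR adjusted p = 0.142). The libraries of the groups were apart for all 3. With a term for library set, a fit chosen after the data were seen, 4 collagen genes passed (12.3% of all genes): Col20a1 and Col5a3 rose and Col18a1 and Col8a2 fell in CON-OLD-iBP. With coefficients within sets Col24a1, lower in CON-OLD-iBP, passed as well, which made 5 (18.7% of all genes). Type I genes were lower by their values without passing, at -0.93 (SE 0.39, edgeR adjusted p = 0.208) for Col1a1 and -0.76 (SE 0.32, edgeR adjusted p = 0.211) for Col1a2, and Col3a1 had -1.44 (SE 0.80, edgeR adjusted p = 0.331). The libraries did not overlap for 5 genes higher (Col5a3, Col6a4, Col6a5, Col17a1 and Col20a1; 14.5% of all genes) and 3 lower (Col8a2, Col18a1 and Col24a1; 16.0% of all genes) in CON-OLD-iBP. Leaving out a library gave 5 to 8 higher genes, with 8 without CKO-OLD 3 (17.4% of all genes), and 3 to 13 lower, with 13 without CON-OLD-iBP 2 (24.1%).

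The 2 young groups without the deletion, CON-YOUNG and YOUNG, differ in Ocn-cre and the reporter, in library set and in sex by Xist and Ddx3y. YOUNG 1 and 2 had Xist and no Ddx3y, while CON-YOUNG had Ddx3y and at most 0.404 CPM of Xist. The comparison shows how far collagen genes vary with all of these together. In CON-YOUNG against YOUNG edgeR called 2 of 42 collagen genes, or 4.76%, against 5.55% of all genes. Col16a1 rose in CON-YOUNG, at 221 ± 62.2 CPM in CON-YOUNG and 108 ± 22.7 CPM in YOUNG (log2 fold change 1.04, SE 0.24, edgeR adjusted p = 0.0221). Col13a1 fell: it was at 0 in all 3 CON-YOUNG libraries, against 6.96, 3.80 and 0.618 CPM in YOUNG, which is at least 215-fold lower (edgeR adjusted p = 0.0456). With a term for library set neither passed, and with the replicate number as a block in a fit of these groups alone 0 collagen genes passed, with or without the block. Of all genes tested, none passed with the set term, with the replicate block or without YOUNG 1, CON-YOUNG 1 or CON-YOUNG 2, so every call in this comparison, of collagen genes or others, was lost there. The collagen count was 0 without YOUNG 1, YOUNG 2, CON-YOUNG 1 or CON-YOUNG 2. It was 5 without YOUNG 3 (1242 of 17096 genes) and 11 without CON-YOUNG 3 (17.1% of all genes). Col4a1 had a log2 fold change of 2.15 (SE 0.73, edgeR adjusted p = 0.0989), Col12a1 of 1.45 (SE 0.50, edgeR adjusted p = 0.103), Col1a2 of 0.71 (SE 0.32, edgeR adjusted p = 0.199), Col1a1 of 0.74 (SE 0.39, edgeR adjusted p = 0.272) and Col3a1 of 1.37 (SE 0.80, edgeR adjusted p = 0.319). Within set 3, between CON-YOUNG 3 and YOUNG 3, Col12a1 turned to -0.42 and Col3a1 to -1.81. The libraries did not overlap for 3 genes higher (Col1a1, Col1a2 and Col16a1; 10.1% of all genes) and 3 lower (Col11a1, Col13a1 and Col23a1; 13.0% of all genes) in CON-YOUNG. Without CON-YOUNG 3 there were 17 higher (26.6% of all genes) and 9 lower (28.8%), and without YOUNG 3 there were 11 higher (18.9%). All 16 macrophage and monocyte markers fell here, with sums of 194 to 456 CPM in CON-YOUNG and 3665 to 15056 CPM in YOUNG, and their part in the collagen differences was not tested.

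**Figure D5:**
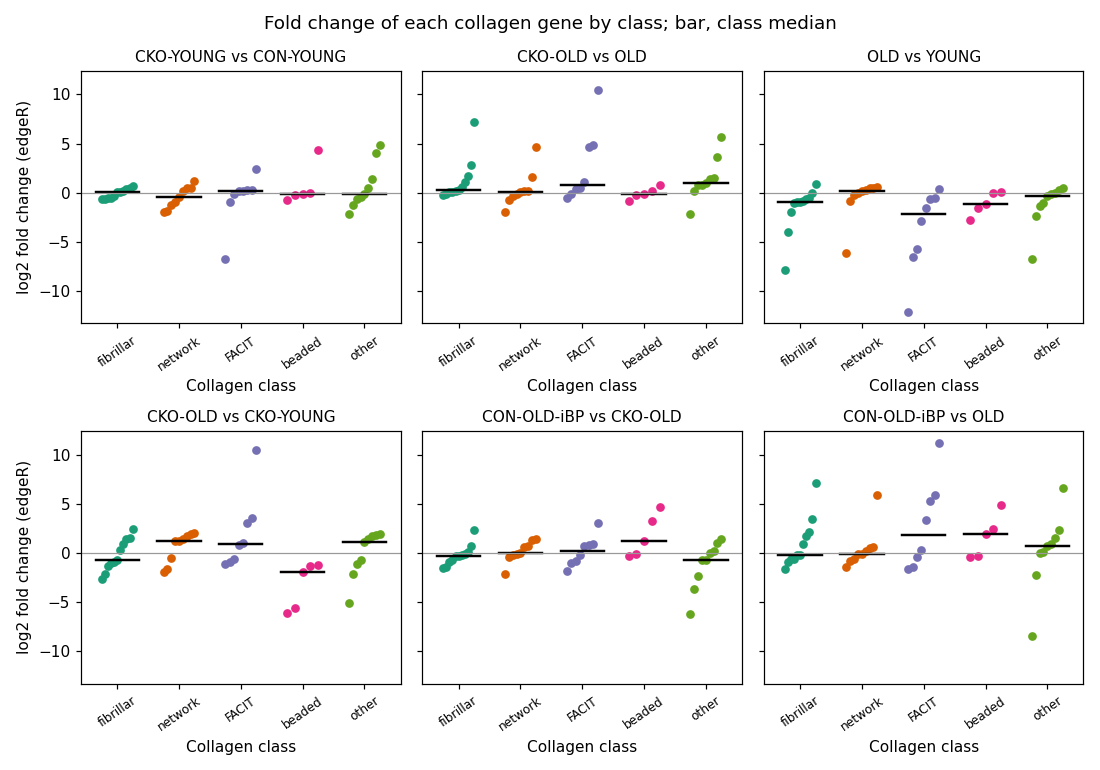
Log2 fold change of each collagen gene tested (points, by class) in 6 comparisons (edgeR, first group over second), with a bar at the median of each class. In OLD against YOUNG the bars are at -0.91 for fibrillar and -2.23 for FACIT genes, where they were -0.63 and -0.042 without YOUNG 3, and in CKO-OLD against CKO-YOUNG the bar is at -1.91 for beaded genes. The farthest points are genes with a group at 0 counts, such as Col9a1, whose fitted values are no bounds.

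Genes that fold, modify, cut and crosslink collagen were followed as a list of 37, of which 36 were tested. In CKO-OLD against OLD 32 of the 36 had a positive log2 fold change (median 0.38, against -0.01 over all genes), and none passed the edgeR test (0.00604% of all genes). The smallest p-values there were those of P3h2, a prolyl 3-hydroxylase, at 2.35 (edgeR adjusted p = 0.586), and Adamts3, which removes the end of fibrillar procollagens, at 1.17 (edgeR adjusted p = 0.59). In OLD against YOUNG 7 of 36 were positive (median -0.30, against -0.03 over all genes), and none passed. Summed over the list, the level was 17593, 17996 and 32956 CPM in YOUNG 1, 2 and 3, against 17225 to 17945 CPM in OLD. By this sum YOUNG 3 alone lay well above OLD, and the part of YOUNG 3 in the median was not tested. Creb3l1, a transcription factor that osteoblasts need for secretion of collagen, had -1.05 (edgeR adjusted p = 1) and Sparc, a collagen-binding glycoprotein of bone, -0.82 (edgeR adjusted p = 1). These 2 comparisons share the OLD libraries.

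In CKO-OLD against CKO-YOUNG Tmem38b, the channel of the endoplasmic reticulum whose loss causes brittle bone in humans, rose, at 51.6 ± 8.22 CPM in CKO-OLD and 25.6 ± 2.41 CPM in CKO-YOUNG (log2 fold change 1.01, edgeR adjusted p = 0.0389), which is 1 of the 36 against 0.7% of all genes. The call was lost without any single library of these groups other than CKO-YOUNG 3 (edgeR adjusted p 0.108 to 0.173). It was also lost with a term for library set (0.173), without set 1 (0.0841) and with the replicate block (0.11). Serpinh1, the collagen chaperone, averaged 1098 ± 116 CPM in CKO-OLD and 3019 ± 776 CPM in CKO-YOUNG (log2 fold change -1.46, edgeR adjusted p = 0.051). In CON-OLD-iBP against CKO-OLD 4 of 36 were positive (median -0.41, against -0.01 over all genes), and 2 fell: Tmem38b, at 23.0 ± 4.70 CPM in CON-OLD-iBP and 51.6 ± 8.22 CPM in CKO-OLD (log2 fold change -1.17, edgeR adjusted p = 0.0228), and Adamts3, at 0.748 ± 0.368 CPM in CON-OLD-iBP and 4.28 ± 0.774 CPM in CKO-OLD (log2 fold change -2.51, edgeR adjusted p = 0.0388), against 1.29% of all genes called. Both calls were lost without any single library of these groups other than CON-OLD-iBP 2 (edgeR adjusted p 0.0671 to 0.112 for Tmem38b and 0.0859 to 0.137 for Adamts3). That of Adamts3 was also lost without set 1 (0.065) and with the replicate block (0.0544). The last 2 comparisons share the CKO-OLD libraries. Against OLD, none of the 36 passed in CON-OLD-iBP, with Tmem38b at -0.97 (edgeR adjusted p = 0.0538) and Adamts3 at -1.34 (edgeR adjusted p = 0.135). In CON-YOUNG against YOUNG Loxl1, a crosslinking enzyme of the lysyl oxidase family, rose, at 721 ± 472 CPM in CON-YOUNG and 128 ± 57.8 CPM in YOUNG (log2 fold change 2.50, edgeR adjusted p = 0.0398), 1 of the 36 against 5.55% of all genes, and Serpinh1 had 1.14 (edgeR adjusted p = 0.0514). The Loxl1 call was lost with the replicate block (edgeR adjusted p = 0.133), with a term for library set (0.552) and without any single library other than CON-YOUNG 3 (0.0963 to 0.178). It was also lost with no filter on low counts (edgeR adjusted p = 0.0507) and with the groups alone and no block (0.173). By limma-voom it failed as well (limma-voom adjusted p = 0.0603). None passed in CKO-YOUNG against CON-YOUNG or over both ages. Adamts3 had the smallest p in both, at 1.15 (edgeR adjusted p = 0.852) and 1.16 (edgeR adjusted p = 0.252), and Colgalt2, a collagen galactosyltransferase, was next, at means of 0.0589 ± 0.0592 CPM in CKO-YOUNG and 0 ± 0 CPM in CON-YOUNG.

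Of 22 collagen receptors and fibril partners 20 were tested, and 1 of them passed in 1 comparison, where 5.55% of all genes were called. Lair1, an inhibitory collagen receptor of immune cells, fell in CON-YOUNG against YOUNG, at 1.29 ± 0.395 CPM in CON-YOUNG and 39.2 ± 26.9 CPM in YOUNG (log2 fold change -4.92, edgeR adjusted p = 0.0174), where the macrophage and monocyte markers fell as well, and Bgn, a proteoglycan of bone matrix, had 0.77 (edgeR adjusted p = 0.0861). The Lair1 call was lost with the replicate block (edgeR adjusted p = 0.151), with a term for library set (0.592) and without YOUNG 1, CON-YOUNG 1 or CON-YOUNG 2 (0.0646 to 0.109). It was also lost with the groups alone and no block (edgeR adjusted p = 0.0771) and by limma-voom (limma-voom adjusted p = 0.121). No other member passed. In CKO-OLD against CKO-YOUNG the matrix glycoprotein Thbs1 had -1.48 (edgeR adjusted p = 0.0587) and the fibril-binding proteoglycan Fmod 2.89 (edgeR adjusted p = 0.0698). Against OLD, CON-OLD-iBP had 0.86 (edgeR adjusted p = 0.0634) for Ddr2, a receptor for fibrillar collagen, and -3.40 (edgeR adjusted p = 0.0708) for Lair1, and against CKO-OLD 3.95 (edgeR adjusted p = 0.175) for Itga2, a collagen-binding integrin chain, and 0.51 (edgeR adjusted p = 0.233) for Ddr2. Aspn, a proteoglycan that binds collagen, had 3.78 (edgeR adjusted p = 0.353) in CKO-YOUNG against CON-YOUNG and 2.76 (edgeR adjusted p = 0.127) over both ages, where Prelp, a related proteoglycan, had -3.97 (edgeR adjusted p = 0.53) and -1.65 (edgeR adjusted p = 0.632). Aspn was at 35.9, 9.71 and 319 CPM in CKO-YOUNG, against 12.1, 7.28 and 7.14 CPM in CON-YOUNG, so CKO-YOUNG 3 set most of its mean. Prelp was at 28.6, 18.3 and 36.7 CPM in CKO-YOUNG, against 107, 97.7 and 1107 CPM in CON-YOUNG, so CON-YOUNG 3 set most of that mean. In CKO-OLD against OLD Thbs1 had -0.80 (edgeR adjusted p = 0.596) and Lair1 -1.90 (edgeR adjusted p = 0.625), and in OLD against YOUNG Itgb1, the partner chain of the collagen-binding integrins, had -0.50 (edgeR adjusted p = 1) and Itga2 -3.19 (edgeR adjusted p = 1). Itga2 was at 0.470, 0.507 and 34.6 CPM in YOUNG 1, 2 and 3, against 0.811, 2.14 and 0.940 CPM in OLD. Its negative value came from YOUNG 3 alone, as every OLD library was above YOUNG 1 and 2. The medians of the 20 genes lay between -0.29 in OLD against YOUNG and 0.30 in CON-OLD-iBP against OLD.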

How the data were processed

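The series holds 26 samples. RNA counts of 18 were analysed, and the 8 CUT&Tag samples are not analysed here. The authors deposited read counts per gene symbol, whole numbers with no normalization. FastQC, Trim Galore, HISAT2 and the mm39 build are named, per the submitters' processing notes. The sources used here do not give the counting program, the annotation or the use of strand, so overlapping and antisense genes cannot be told apart by their counts. Groups and replicate numbers come from the titles.

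Genes were kept by filterByExpr in edgeR 4.0.16 (minimum count 10, minimum total 15), leaving 16566, scaled by TMM and tested with the edgeR quasi-likelihood F test, two-sided, with a robust fit, 1 coefficient per group over the 18 libraries and 12 residual degrees of freedom. P-values were Benjamini-Hochberg adjusted over all genes tested, with a threshold of 0.05. CPM was computed on TMM library sizes, and each mean has its SD over 3 libraries. The floor for a group at 0 is 3 counts over the group and, like the Wilson intervals, covers counting error only. R 4.3.3, DESeq2 1.42.0, limma 3.58.1 (voom), Python 3.11.15, scipy 1.17.1 and matplotlib 3.10.9 were used, and the fits were tested on simulated data. Library set 3 holds libraries above 0.05% Malat1, and sets 1 and 2 part the rest by group label.

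The collagen genes, the lists and the tests were chosen with earlier results of these data known. Each gene of at least 1 CPM in a group mean has its levels given; each comparison names Col1a1, Col1a2, Col3a1, the 4 collagen genes of smallest p and those called, and each list the 2 genes of smallest p and those called. A permutation test planned for the collagen share is not given, since the share sums the members. Contrasts of 2 effects and non-overlap counts with a library left out were chosen after seeing the data. As a check of pairing by replicate number, log CPM deviations from the group mean were correlated between libraries of equal number. The r was 0.193, 0.237 and 0.305 for CKO-YOUNG with CON-YOUNG and 0.146, 0.245 and 0.31 for CON-YOUNG with YOUNG. The rule for pairing, all 3 above 0.1, was met by no other comparison. In CKO-YOUNG, CON-YOUNG and YOUNG, replicate 3 lies in set 3 and replicates 1 and 2 do not. The check therefore cannot tell pairing from library set.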

Additional observations from a re-analysis of the deposited data

Results flagged for a closer look

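Col4a2, a chain of basement membrane collagen, had log2 fold changes of opposite sign in CKO-OLD against CKO-YOUNG and in OLD against YOUNG, pairs that differ in mouse line as well as in the deletion, and neither passed the test. It stood at 301, 489.7 and 549.9 CPM in CKO-OLD, against 1511, 1717 and 991 CPM in CKO-YOUNG, and at 340.5, 585 and 335 CPM in OLD, against 293, 332 and 279.6 CPM in YOUNG, with no overlap in either pair. The difference between the 2 age effects was -2.13 on the log2 scale (SE 0.84, edgeR adjusted p = 0.351), so it failed the adjustment over all genes. CKO-YOUNG 1 and 2 lie in set 2, and the part of the library sets, and of sex by Xist and Ddx3y, in this difference was not tested.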

How the results depend on the processing

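Of the counts of collagen genes called, 119 alternatives stayed within 1.5 times the reported count and 51 did not, and of the collagen shares 71 moved by less than 1 SD and 4 by more. Log2 fold changes of named genes kept direction and side of the threshold in 881 cases, passed it in 41, lost it in 19 and reversed in 46. For every count below that differs from the one reported, the cause was not tested. In log2 units the share ratio was 0.33 for CKO-YOUNG against CON-YOUNG and -1.12 for CKO-OLD against CKO-YOUNG without Col1a1 and Col1a2, and 0.74 for CKO-OLD against OLD and -1.28 for OLD against YOUNG without set 1. With a term for library set the count was 1 for CKO-YOUNG against CON-YOUNG (0.561% of all genes) and 4 for CON-OLD-iBP against CKO-OLD (12.3%). It was 0 for CON-YOUNG against YOUNG, as over all genes, and 1 for any difference (4.11%). Within set 3 it was 5 for CON-OLD-iBP against CKO-OLD (18.7% of all genes). The other comparisons within set 3 rest on groups of 1 library that borrow the spread of others. Without set 1 it was 0 for CON-YOUNG against YOUNG and 0 for any difference. DESeq2 gave 9 for CKO-OLD against CKO-YOUNG (12.7% of all genes), 4 for CON-OLD-iBP against OLD (13.6%) and 3 for CON-OLD-iBP against CKO-OLD (9.0%). It gave 5 for CON-YOUNG against YOUNG (2063 of 16113 genes) and 21 for any difference (36.8%). By limma-voom there was 1 for CKO-OLD against CKO-YOUNG (1.53%). With a mean of at least 1 CPM the count was 1 for CKO-OLD against CKO-YOUNG (220 of 13226 genes) and 1 for CON-YOUNG against YOUNG (1012 of 13226). The latter was also 1 with no filter on low counts (733 of 20832). Leaving out each library gave 0 to 7 for CKO-OLD against CKO-YOUNG, with 7 without CKO-YOUNG 3 (15.7% of all genes). It gave 0 to 1 for CON-OLD-iBP against OLD, with 1 without OLD 2 (1346 of 17108 genes). For CON-YOUNG against YOUNG it gave 11 without CON-YOUNG 3 (17.1%) and 5 without YOUNG 3 (1242 of 17096). That count was 0 without YOUNG 1, YOUNG 2, CON-YOUNG 1 or CON-YOUNG 2. Any difference had 5 to 20, with 20 without CON-YOUNG 3 (31.7%). Without each of 12 libraries it had 5 to 7, where 1369 to 2193 of all genes were called, and the rest lay within 1.5 times.

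The groups were also compared alone, with a block for replicate number and with no block. For CKO-OLD against CKO-YOUNG the count was 2 with the block (230 of 15128 genes) and 6 with no block (736). For CON-OLD-iBP against CKO-OLD it was 4 (649 of 15292 genes) and 3 with no block (679). Over both ages it was 1 (45 of 16057 genes) and 0 with no block (89). For CON-OLD-iBP against OLD it was 0 (2 of 15155 genes) and 1 with no block (30). For CON-YOUNG against YOUNG it was 0 with and without the block. It was 0 with and without the block in the other 3 comparisons. Only CKO-YOUNG against CON-YOUNG and CON-YOUNG against YOUNG met the rule for pairing, and in both the replicate numbers also follow library set.

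Reversed log2 fold changes were as follows. In CKO-YOUNG against CON-YOUNG within set 2, Col23a1 was -0.37, Col3a1 -0.36, Col6a5 -5.49 and Col7a1 0.23, with a term for set Col6a5 was -1.18, and as each library was left out Col23a1 ran from -0.20 (without CKO-YOUNG 3) to 1.83, Col6a5 from -4.90 (without CKO-YOUNG 3) to 9.25 and Col7a1 from -2.73 to 0.81 (without CON-YOUNG 3). In CKO-OLD against OLD, Col3a1 was 0.61 with a set term, 1.31 without set 1 and within set 3, and -0.89 to 0.23 as each library was left out, above 0 without OLD 1, OLD 3 or CKO-OLD 1. Col9a3 was -0.16 with a set term, and Col1a2 ran from -0.066 (without CKO-OLD 2) to 0.30. Over both ages, Col1a1 was 0.006 with RLE factors, 0.005 with a mean of at least 1 CPM, 0.23 with a set term, 0.32 without set 1, 0.44 within set 3, 0.006 by DESeq2, 0.015 by limma-voom, 0.011 with the replicate block and -0.12 to 0.11 as each library was left out. Col1a2 was 0.046 within set 3 there, and Col3a1 ran from -0.14 (without CKO-OLD 2) to 0.50. In OLD against YOUNG, Col3a1 was -0.20 with a set term, -1.37 without set 1 and within set 3, -0.23 by limma-voom, -0.20 with the block and -0.26 to 0.40 as each library was left out. In CON-OLD-iBP against OLD, Col1a1 was 0.014 without set 1 and 0.016 within set 3. In CON-YOUNG against YOUNG within set 3, Col12a1 was -0.42 and Col3a1 -1.81. At this depth 1 count is 0.0127 to 0.0203 CPM, so genes under that level were not detectable.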
